A study of Homo sapiens with 8 samples.

Results

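The apolipoprotein L (APOL) genes are a family of 6 genes on chromosome 22, and the sites of open chromatin in and around them were followed through 8 FAIRE-seq libraries. A site was taken when a peak of any library lay in the body of an APOL gene or within 10 kb of it (GENCODE 44, GRCh38). Peaks of different libraries that overlapped were joined into regions, which gave 8 APOL regions out of 52105 in the series, built from 16 listed peaks. Of these, 6 were promoter regions, with an annotated transcription start site (TSS) no further than 500 bp away, and 2 were distal. The family was chosen by its response to interferon gamma (IFNγ), as promoter peaks that appeared at APOL2 and APOL3 in treated knockout cells were known from earlier results, so the treatment contrast is given here as a description without a test.

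FAIRE-seq enriches DNA that is free of nucleosomes, and a peak marks open chromatin. The cells were U2OS, a human osteosarcoma line, as 2 wild-type clones (WT_4 and WT_5) and 2 clones with a knockout of the zinc finger gene ZBTB48 (KO_C5 and KO_D2). Each clone gave 1 untreated library and 1 library after 250 U/ml IFNγ, so that WT_untreated, WT_IFNγ, KO_untreated and KO_IFNγ held 2 libraries each. Replicate 1 is clone WT_4 or KO_C5 and replicate 2 is clone WT_5 or KO_D2, and a clone stands for a single line derived from the parental cells. The labels give 24 h of IFNγ, while the text of the study gives a longer time for FAIRE-seq, so the duration is uncertain.

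APOL proteins are interferon-inducible members of the innate immune response. APOL1 is secreted and circulates on high-density lipoprotein, where it is the factor in human serum that lyses trypanosomes, while the other family members act inside the cell. APOL3 disrupts membranes of bacteria that reach the cytosol, and APOL6 has been tied to cell death. Part of the interferon response runs through IRF factors, which bind the interferon-stimulated response element (ISRE).

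The genes lie in 2 groups. APOL6 (chr22:35648446-35668404) and APOL5 (chr22:35717872-35729483) are on the plus strand and span 81.0 kb. A gap of 411 kb follows before APOL3 (chr22:36140329-36166177), APOL4 (chr22:36189124-36204840) and APOL2 (chr22:36226209-36239954), all on the minus strand, and APOL1 (chr22:36253071-36267530) on the plus strand, which together span 127 kb. APOL2 and APOL1 are arranged head to head, with 13606 bp between their principal start sites. APOL5 had no peak in any library, so the 8 regions belong to the other 5 genes.

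The promoter of APOL2, the gene with a peak in most libraries, is shown as 201 bases of the GRCh38 reference around the summit of its strongest peak, read 5′ to 3′ along the gene. Capitals mark the letters of an ISRE core (GAAA, any 2 bases, GAAA) on either strand.
APOL2 promoter, chr22:36239557-36239757, minus strand: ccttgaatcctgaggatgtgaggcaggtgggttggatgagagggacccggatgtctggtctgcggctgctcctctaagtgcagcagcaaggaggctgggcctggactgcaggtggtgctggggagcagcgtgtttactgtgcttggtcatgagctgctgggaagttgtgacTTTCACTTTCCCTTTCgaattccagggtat

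The APOL2 window held 2 overlapping ISRE cores, which began 59 and 53 bases before the principal (MANE) TSS. Among windows of 201 bases around the strongest summit of a region, 1.59% of 20186 promoter regions held such a core, against 2.68% of all 52105 regions. The hexamer TTAGGG, the telomeric repeat that ZBTB48 binds, was not in the APOL2 window, and it was found in 4.16% of promoter regions. GTGAGT, which served the study as the control sequence, was not in it either and was found in 8.94% of promoter regions. The window had 56.7% GC and 4 CpG dinucleotides, against medians of 68.7% and 19 over promoter regions.

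The same element stands at the same distance from the TSS in APOL1. Motif letters in the other APOL promoters are not reported here, so the element is not shown to be particular to this pair. The 36 bases from 72 to 37 bases before the TSS are shown along each gene, with the ISRE letters in capitals.
APOL1, chr22:36253061-36253096, plus strand: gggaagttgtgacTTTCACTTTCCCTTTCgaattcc
APOL2, chr22:36239564-36239599, minus strand: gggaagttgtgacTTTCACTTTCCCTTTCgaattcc

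The stretches were the same at 36 of 36 bases. The likeness extended past this element. Outside its own place, the APOL2 promoter region (379 bp) matched best at APOL4, with 88.7% identity over 302 bp, and the APOL1 promoter region matched best at the same place of APOL4, with 88.5% over 252 bp. That stretch of APOL4 (chr22:36204649-36204950) spans the outer start sites of the gene. No library had a peak there. The APOL4 promoter that did have a peak lies downstream of it, and its best match was inside APOL1 (chr22:36254899-36255344), with 91.5% identity over 447 bp. The APOL1 copy lies 1957 bp from the nearest APOL1 TSS and had no peak. The APOL3 promoter matched the APOL2 promoter with 82.9% identity over 211 bp. Reads with a mapping quality under 30 had been removed by the authors, and how much that took from such copies was not tested. The regions of APOL6 had no match elsewhere in the genome.

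APOL peaks were listed mainly after IFNγ. The IFNγ libraries held 14 of the 16 peaks. Each of the 6 promoter regions had its strongest peak in an IFNγ library, and all but that of APOL2 had peaks in IFNγ libraries only. The number of APOL regions with a peak was 0 in WT_IFNγ replicate 1, 7 in WT_IFNγ replicate 2, 4 in KO_IFNγ replicate 1 and 3 in KO_IFNγ replicate 2. It was 1 in both WT_untreated libraries and 0 in both KO_untreated libraries. The IFNγ libraries had 3.5 ± 2.89 regions and the untreated libraries 0.5 ± 0.577 (SD, n = 4 each), and the groups overlapped through clone WT_4. With lists cut to the length of the shortest the difference went from 3 regions to 1. Across clones the number changed by 6 in WT_5, 4 in KO_C5, 3 in KO_D2 and -1 in WT_4. A peak in an IFNγ library and in no untreated library was found for 6 of the 8 regions, against 28.7% of all regions. The untreated peaks were those of the APOL2 promoter and of the distal APOL1 site.

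**Figure D1:**
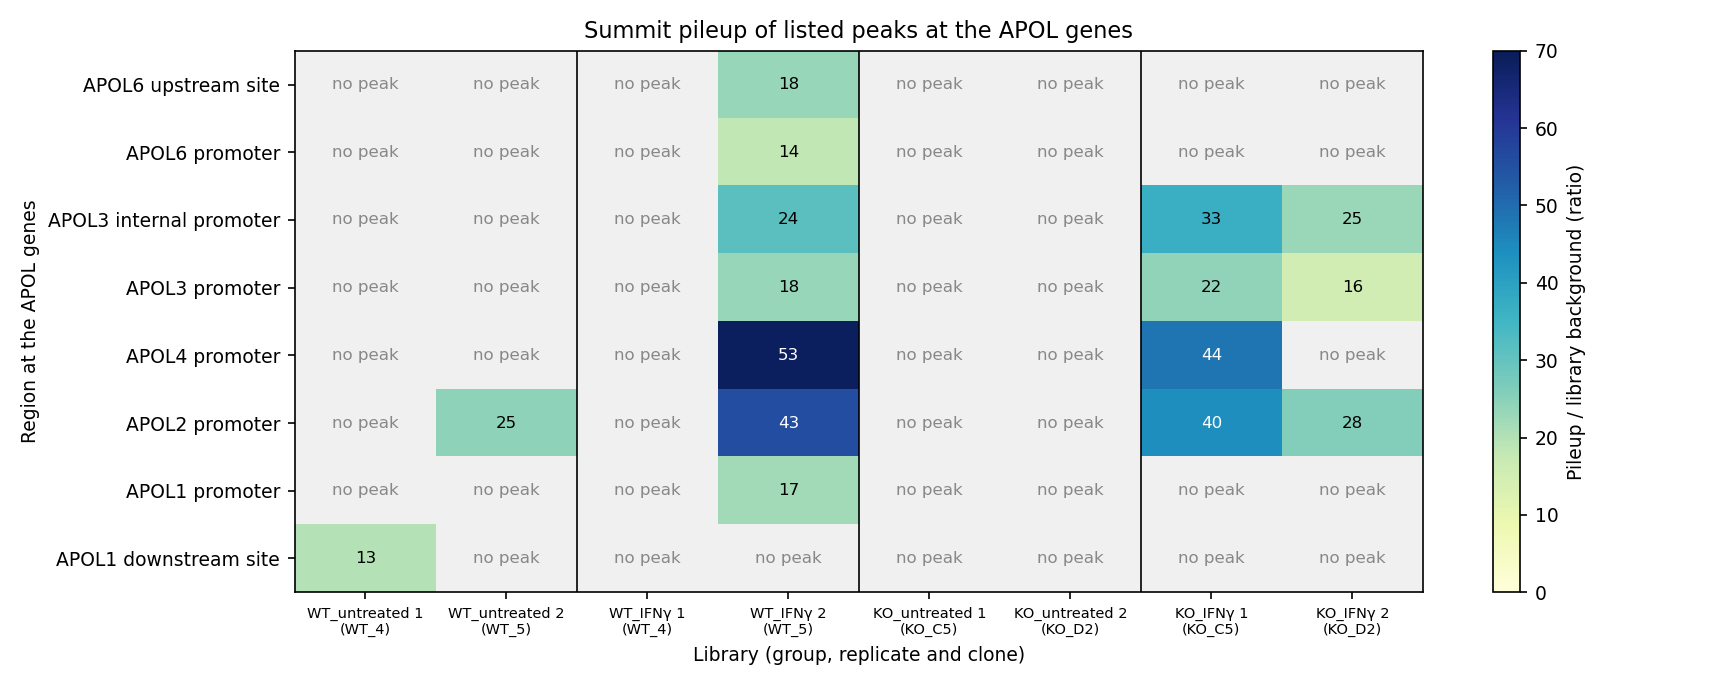
Summit pileup at the 8 APOL regions (rows) in the 8 libraries (columns, grouped by genotype and treatment), with the number of fragments printed in each cell and the colour giving the pileup divided by the background of the library. Grey cells had no listed peak. Most peaks are in WT_IFNγ replicate 2 (7 regions), KO_IFNγ replicate 1 (4) and KO_IFNγ replicate 2 (3). The highest pileup is 53 fragments at the APOL4 promoter.

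Peak lists carry no read counts, and 3 values describe a peak here. The fold enrichment is the pileup of fragments at the summit over the local background, each plus 1. The percentile is the share of peaks of the same library with a lower −log10 p. The pileup is the number of fragments at the summit, solved from fold enrichment and −log10 p. Library background, taken from the position with least local background in each list, ranged from 0.621 to 1.08 fragments.

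APOL2 was the family member with a peak in most libraries. Its promoter region (chr22:36239462-36239840) had a peak in WT_untreated replicate 2, WT_IFNγ replicate 2 and both KO_IFNγ libraries. The summit pileup was 25 fragments in WT_untreated replicate 2, 43 in WT_IFNγ replicate 2, 40 in KO_IFNγ replicate 1 and 28 in KO_IFNγ replicate 2. Divided by library background these were 24.4, 55.9, 44.2 and 26.0. The untreated WT_5 library was thus the lowest of the 4, close to KO_D2 after IFNγ, and the other 4 libraries had no peak. Fold enrichment was 9.98, 20.0, 8.82 and 5.51 in the same order, and the percentile was 49.0, 68.8, 46.5 and 28.9. Both KO peaks had a lower fold enrichment than the untreated WT_5 peak although their pileup was higher, with a local background of 3.65 and 4.27 fragments in KO against 1.61 and 1.20 in WT. Summits of the 4 peaks lay within 103 bp of each other, upstream of the TSS.

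APOL3 had 2 promoter regions. The region at the principal TSS (chr22:36160674-36160982) had a peak in WT_IFNγ replicate 2 and in both KO_IFNγ libraries and in no other. Its pileup was 18, 22 and 16 fragments in WT_IFNγ replicate 2 and KO_IFNγ replicates 1 and 2, and its fold enrichment was 7.95, 6.04 and 3.83. The last of these peaks ranked at percentile 5.90 of its list and was the weakest of the 16 APOL peaks, whereas the WT peak ranked at 39.9. The strongest summit lay 118 bp upstream of the TSS, within a coding exon of another transcript.

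The internal APOL3 promoter (chr22:36156659-36157372) lies 3806 bp further along the gene at another annotated TSS, and its strongest summit falls in an intron, 281 bp upstream of that TSS. The same 3 libraries had a peak there, with a pileup of 24, 33 and 25 fragments and a fold enrichment of 10.0, 10.2 and 6.88. The percentile was 50.1, 45.3 and 33.5, above that of the principal promoter in each library. These were the longest APOL peaks, 714, 634 and 606 bp against 212 to 444 bp for the other APOL promoter peaks, and their summits lay within 25 bp. The pattern of both APOL3 regions, a peak in these 3 libraries only, was found for 1.03% of all regions.

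The APOL4 promoter gave the strongest peak of the family. The region (chr22:36201650-36202093) had a peak in WT_IFNγ replicate 2 and KO_IFNγ replicate 1, with a pileup of 53 and 44 fragments, and none in KO_IFNγ replicate 2, the other KO clone. Fold enrichment was 21.6 and 10.2, and the percentile was 72.4 and 51.3. Local background was 1.94 times library background in the WT library and 3.77 times in the KO library. The summits were 13 bp apart, and the stronger lay 125 bp upstream of the TSS, in the untranslated part of an exon of another transcript.

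Peaks at the remaining promoters were listed in WT_IFNγ replicate 2 alone, a pattern of 14.7% of all regions. The APOL1 promoter (chr22:36252896-36253149) had a pileup of 17 fragments, a fold enrichment of 7.97 and a percentile of 39.4, with its summit 83 bp upstream of the principal TSS. The APOL6 promoter (chr22:35648291-35648564) had a pileup of 14 fragments, a fold enrichment of 5.01 and a percentile of 21.5, and its summit lay 6 bp past the TSS in the untranslated region. The third region of this kind was the distal APOL6 site (chr22:35646822-35647063), intergenic and 1509 bp upstream of the TSS, with a pileup of 18 fragments and a fold enrichment of 6.34.

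The distal APOL1 site was the only region with a peak in untreated cells and not after IFNγ. It was listed in WT_untreated replicate 1 (chr22:36276633-36276880) with a pileup of 13 fragments and a fold enrichment of 6.71. It lies 9103 bp past the end of APOL1, near the 10 kb limit, and its sequence is a repeat with a very large number of matches across the genome. It is also the only APOL region of clone WT_4.

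**Figure D2:**
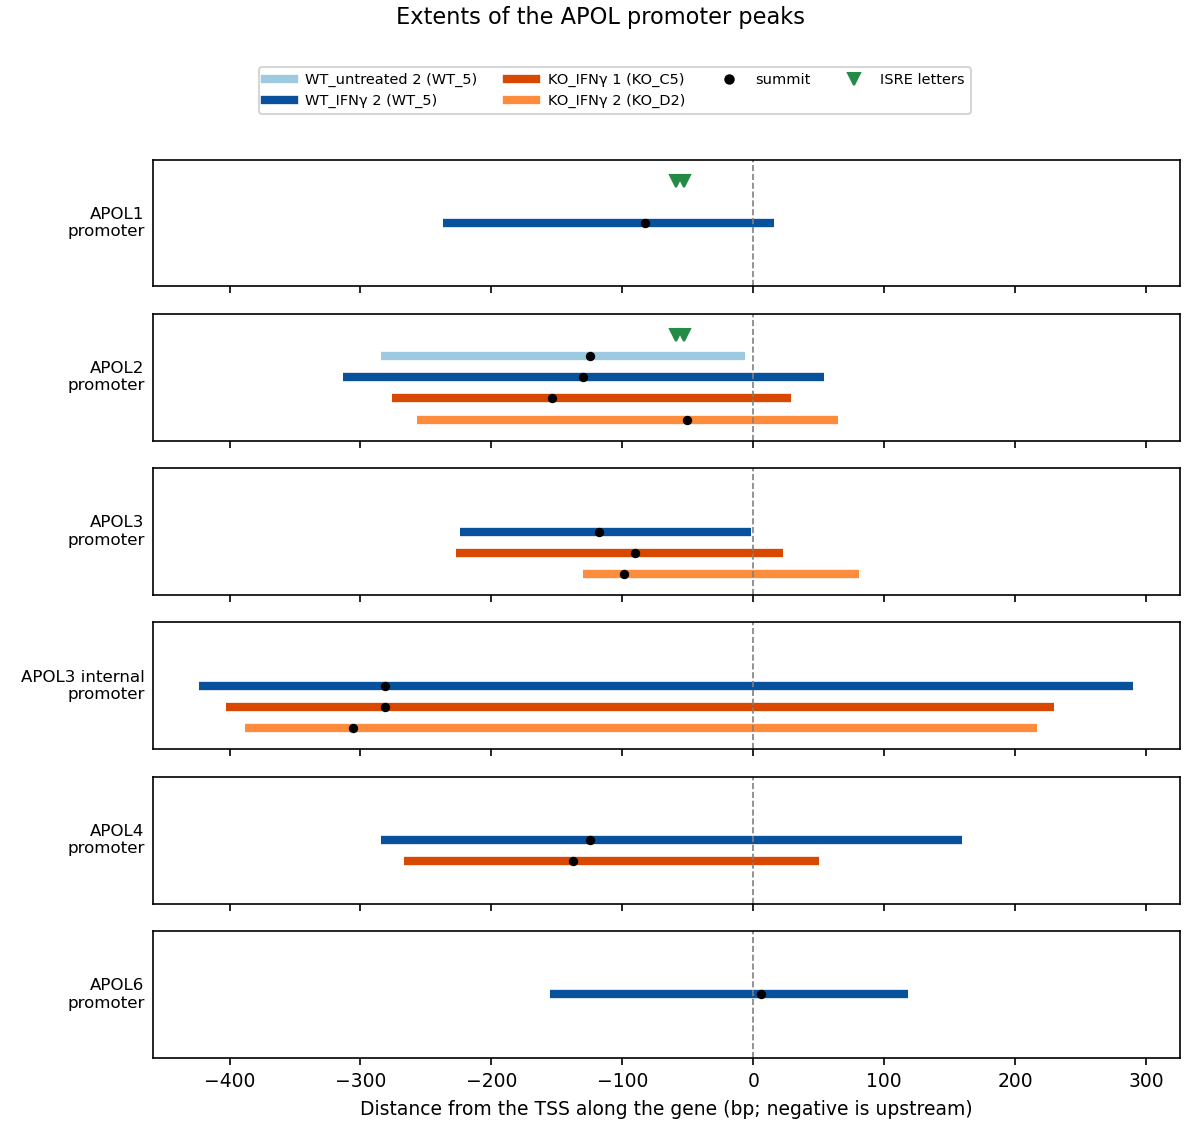
Extent of each peak at the 6 APOL promoter regions, drawn as a bar from its start to its end in bp from the TSS along the gene, with the summit as a dot and 1 colour for each of the 4 libraries with such a peak. Markers above the bars give the start of the ISRE letters in APOL1 and APOL2, the genes whose element is printed, at 59 and 53 bases before the TSS. Most summits lie upstream of the TSS.

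Clone WT_4 had no APOL promoter peak before or after IFNγ. Whether a peak of the heights seen elsewhere could have been listed was examined from the lowest −log10 p of each list. At the local background typical of APOL peaks in WT, a pileup of 6 fragments would have been listed in either WT_4 library, which is 9.15 times library background untreated and 9.67 times after IFNγ. In the KO_untreated libraries the limit was 9 fragments in both, or 12.5 and 14.4 times library background. The 14 APOL promoter peaks ranged from 14.8 to 68.9 times library background. At that local background a promoter as open as the weakest of these would have been listable in each of the other libraries. In KO_untreated replicate 2 the margin was narrow, 14.4 against 14.8. The KO value was a median of 3.18 times library background, taken from IFNγ libraries alone, where the ratio reached 4.03. Limits at higher local background were not computed. Smaller peaks were below detection, so a missing peak sets an upper limit at that local background and does not show closed chromatin.

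Gain of a promoter peak was counted for each genotype as a peak in both IFNγ libraries and in neither untreated library. In KO 2 of the 5 APOL genes with a promoter peak in some library were gained, APOL2 and APOL3, the values on which the family was chosen, against 4.03% of 20906 genes. In WT 0 of 5 were gained, against 0.273% of genes, and the library of WT_4 decides this count, as without that clone 4 were gained. With each list cut to the length of the shortest, 1 APOL promoter was gained in KO, that of APOL3, and the share of all genes was not counted.

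Counted clone by clone, a promoter was newly listed when it had a peak in the IFNγ library and none in the untreated library of that clone. In WT_5 the newly listed genes were 4 of the 5 APOL genes with a promoter peak (APOL1, APOL3, APOL4 and APOL6), against 8.3% of all genes with a promoter peak in that clone. In KO_C5 all 3 were newly listed (APOL2, APOL3 and APOL4), against 15.1%, and in KO_D2 both were (APOL2 and APOL3), against 10.6%. Neither KO_untreated library had an APOL peak, so each APOL gene counted in a KO clone was newly listed by definition. The KO peaks of APOL2 and APOL3 are also the values on which the family was chosen. In WT_4 no APOL promoter had a peak, and 3.61% of all genes were newly listed. APOL3 was the single member newly listed in every clone but WT_4, and APOL2 was absent from the WT_5 set since it had a peak before treatment. The WT_5 list after IFNγ was also the longest of all. With lists cut to equal length 1 of 2 APOL genes with a peak was newly listed in WT_5 (APOL4). In KO_C5 3 of 3 were, and in KO_D2 1 of 1 (APOL3). The share of all genes was not counted at this setting.

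The other interferon-inducible genes gave a background for this. Of 50 such genes, 38 had a promoter peak in some library, and 7 were gained in KO: the antiviral genes IFI16, ISG15, BST2, MX1 and TRIM21, the nuclear body gene SP110 and HLA-B, a class I antigen-presenting molecule. Of all genes 4.03% were gained in KO. None of the 50 was gained in WT, against 0.273% of all genes, and a gain there also needs a new peak in WT_4. Clone by clone, 13 of 31 were newly listed in KO_C5, 13 of 33 in KO_D2, 7 of 34 in WT_5 and 3 of 22 in WT_4, where the 3 were GBP5, ISG15 and the chemokine gene CXCL10. The shares of all genes were 15.1% in KO_C5, 10.6% in KO_D2, 8.3% in WT_5 and 3.61% in WT_4. The number of the 50 genes with a peak went from 19 to 22 in WT_4, from 27 to 33 in WT_5, from 18 to 31 in KO_C5 and from 20 to 33 in KO_D2. WT_4 therefore had newly listed interferon promoters while it had none of the APOL family. The peak lists themselves grew after IFNγ in KO_C5 (19255 to 27457), KO_D2 (16730 to 24727) and WT_5 (29567 to 37533). That of WT_4 shrank from 21715 to 18913. The interferon-inducible genes were not counted with lists of equal length.

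**Figure D3:**
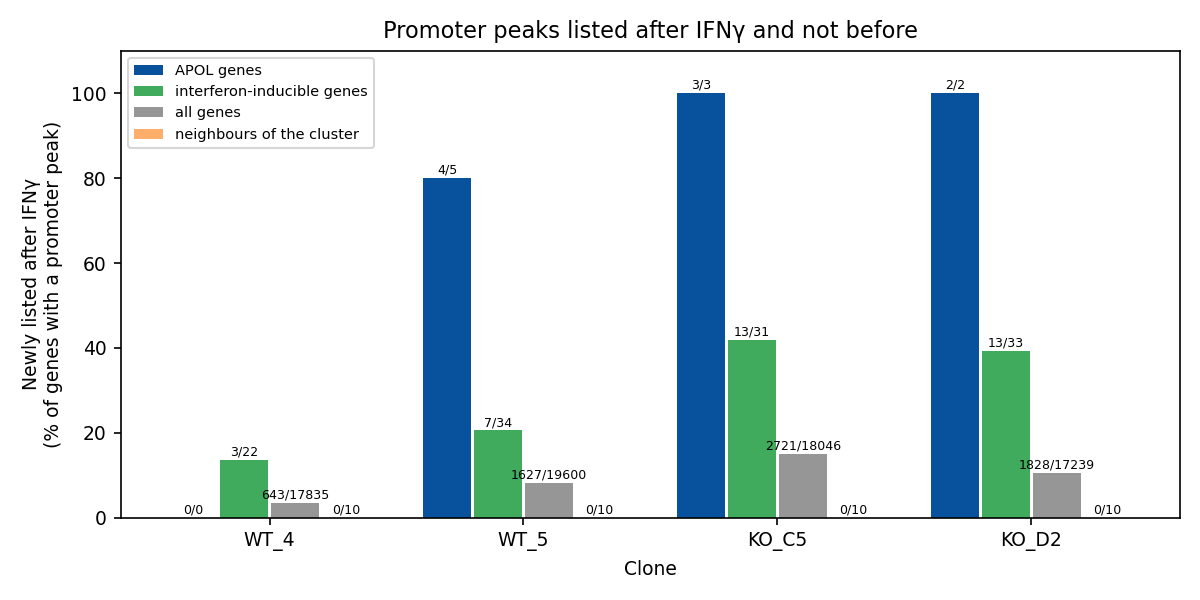
Share of genes whose promoter peak was listed after IFNγ and not before, in percent of the genes with a promoter peak in either library of the clone, for the APOL genes, 50 interferon-inducible genes, all genes and 11 genes that flank the cluster. Counts are printed above the bars, and no APOL gene could be counted in WT_4 (0 of 0). In the KO clones an APOL gene was counted only through its IFNγ peak.

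Genotype is described without a test too, since 6 of the 7 KO peaks lay at APOL2 and APOL3, the promoters on which the family was chosen. The mean number of APOL regions over both libraries of a clone was 0.5 in WT_4, 4 in WT_5, 2 in KO_C5 and 1.5 in KO_D2. WT clones thus held the lowest and the highest value, with the KO clones between them. WT clones averaged 2.25 ± 2.47 regions and KO clones 1.75 ± 0.354 (SD over 2 clones of each genotype), and the difference of 0.5 did not exceed the spread among WT clones. After IFNγ the promoters of APOL2 and APOL3 had a peak in both KO clones and in WT_5.

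Local background was mostly higher at the KO than at the WT peaks of the APOL regions. It was 1.56 to 2.59 times library background at the WT peaks and 2.58 to 4.03 times at the KO peaks. All WT peaks but that of the distal APOL1 site came from clone WT_5. This was not particular to the APOL regions. At the site downstream of APOL3, outside the 10 kb limit, the ratio was 1.76 to 1.91 in WT and 4.78 to 5.10 in KO. Fold enrichment and percentile are computed against local background, and its part in the lower KO folds was not tested.

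Open chromatin around the cluster was present throughout. Of 11 flanking genes, among them HMOX1, MYH9 and RBFOX2, 10 had a promoter peak in every library and none was gained in either genotype. The regions just outside the 10 kb limit were 15996 to 19020 bp from an APOL gene. A site upstream of APOL6 (chr22:35629813-35630264) was listed in all 8 libraries, with a pileup that went from 17 to 10 fragments in WT_4, from 60 to 78 in WT_5, from 62 to 110 in KO_C5 and from 30 to 60 in KO_D2. A site downstream of APOL3 (chr22:36123879-36124333) was also in all 8, at 72.3 to 201 times library background. There the ratio went from 86.9 to 201 in WT_5 and from 131 to 168 in KO_C5. It fell in WT_4 and, from 105 to 72.3, in KO_D2. Both sites had their highest ratio in an IFNγ library, so this trait was not particular to the APOL promoters. Relative to library background WT_4 had the lowest value of the site upstream of APOL6 in either condition, 25.9 untreated and 16.1 after IFNγ, but not of the site downstream of APOL3, where it stood at 166 and 118. A weaker site upstream of APOL6 (chr22:35630521-35630787) was listed in 4 libraries, WT_5 before and after IFNγ and both KO clones after it. Past the end of APOL1 a site (chr22:36286550-36286858) was listed in WT_IFNγ replicate 2 and KO_IFNγ replicate 2, with 41 and 39 fragments.

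**Figure D4:**
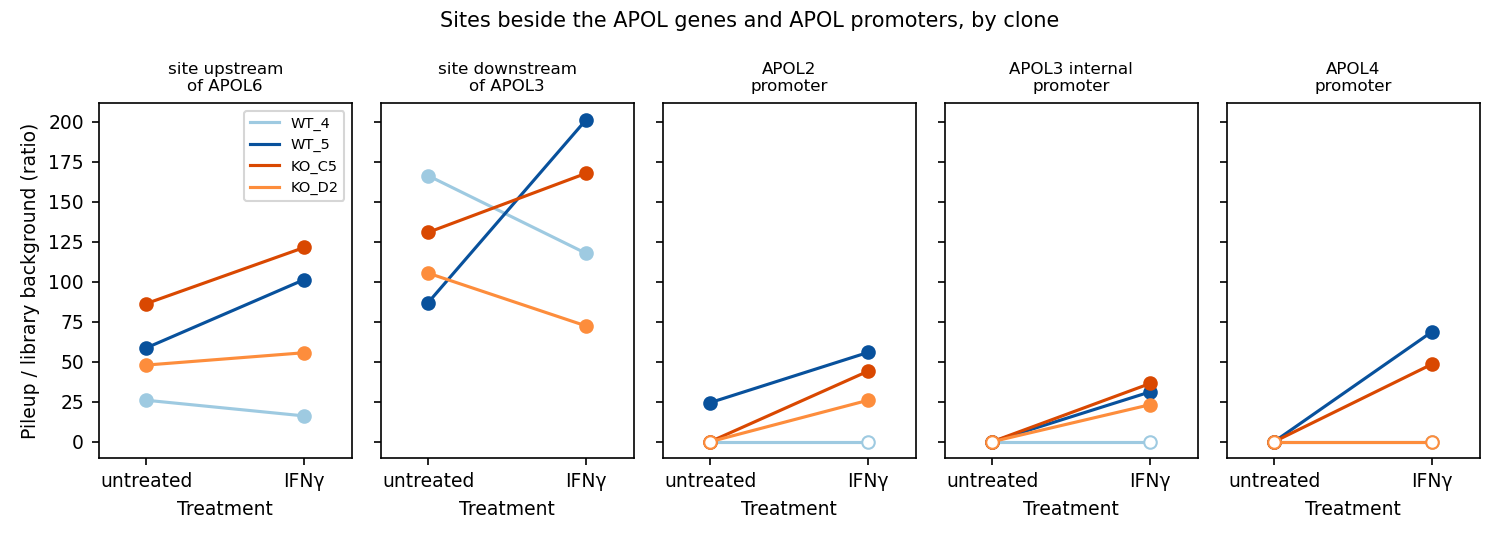
Summit pileup divided by library background, untreated and after IFNγ, for each clone at 2 sites just outside the 10 kb limit and at 3 APOL promoters. Filled points are listed peaks and open points on the zero line had no listed peak, so their level is only known to be under the limit of detection. The outside sites were listed in every library, with 16.1 to 201 times library background, while the APOL promoters were filled only in part.

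The genes whose promoter percentile over the 8 libraries was nearest to an APOL promoter were named by the root mean square difference, with 0 where no peak was listed, among 14420 protein-coding genes. For APOL2 these were ZNF165 (2.81 percentile points), ARHGAP11A and its read-through ARHGAP11A-SCG5 (2.87 each), HHATL (3.08) and CDH12 (3.15), and 234 genes had a peak in the same 4 libraries. For APOL3 they were ITPA (2.57), AQP1 (3.15), ZNF234 (3.66), HIC2 (4.20) and ZNF215 (4.44), and 28 genes shared its libraries. For APOL4 they included SERPINA1 (6.40), SDS (6.60), CSF2 (6.74) and EDN2 (6.98), and 54 genes shared its libraries. APOL1 and APOL6 shared a peak in WT_IFNγ replicate 2 alone with 242 genes. The nearest were XAGE5 for APOL1 and, among the named genes, ASCL5 and MOBP in a tie for APOL6. With so few libraries the measure mostly sorts genes by list membership and rank.

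As for the libraries themselves, lists held 16730 to 37533 peaks, and the IFNγ library of WT_4 was the shortest IFNγ list (18913) while that of WT_5 was the longest of all. Promoters of the mesenchymal markers RUNX2 and VIM had a peak in all 8 libraries, COL1A1 in 7, SPARC in 5 and TWIST1 in 1. Of the markers of other lineages PTPRC, CD3E, CDH1 and ALB had none and EPCAM had a peak in all 8 libraries. The ZBTB48 promoter had a peak in all 8, which says nothing about the knockout.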

How the data were processed

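FAIRE-seq libraries were trimmed with Trimmomatic, aligned to GRCh38 with bowtie2 2.2.5, freed of reads with a mapping quality under 30 with SAMtools 1.14 and peaks were called per library with MACS 2.2.7.1 in paired-end mode, per the study's methods. The methods describe input DNA for FAIRE-seq. Its use in peak calling and the handling of duplicates are not given in the sources used here. The deposited lists hold a fold enrichment (a ratio), −log10 p and −log10 q values, a score that is a multiple of −log10 q and the summit offset.

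From these, peaks on chromosomes 1 to 22 and X were joined into regions by an overlap of at least 1 bp, ranked within each list by −log10 p, and compared with GENCODE 44. Pileup and local background were solved under the Poisson formula of MACS, with a whole number of fragments for 100% of peaks solved in each library. Depth itself is not given by peak lists. Sequences were read from GRCh38 and copies were searched with blastn 2.17.0 (E value 1e-10). Other work used Python 3.11.15, pandas 2.3.3, numpy 2.4.6 and scipy 1.17.1.

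A planned two-sided exact permutation test of genotype over 4 clones is not used as evidence, as most KO peaks had entered the choice of the family. Labels do not say that replicates were separate cultures beyond the clone. The members, gene lists and tests were chosen with earlier results of these data known. Named genes are the APOL genes, the 5 genes nearest in pattern to each, the interferon genes gained in a genotype and up to 3 neighbours. By the labels, both treatments of a clone form a pair, whereas a WT and a KO clone have nothing but the number of the replicate in common. Other settings tried were minimum values of 3 for −log10 q and 4 for fold enrichment, lists of equal length, an overlap of at least 0.5, other distances and promoter windows, other scales and omission of each replicate. Some genes and sequences are not reported here. In simulated lists of 5000 regions 200 of 200 planted gains were recovered.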

Additional observations from a re-analysis of the deposited data

How the results depend on the processing

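With lists cut to equal length (16730 peaks), APOL promoters gained in KO went from 2 to 1, the IFNγ minus untreated difference from 3 to 1 regions and from 2.25 to 1.25 promoters, and the WT minus KO difference in APOL regions from 0.5 to 0. The genotype difference was also 0 with regions limited to gene bodies. The cut removed 5 of the 7 APOL regions of WT_IFNγ replicate 2. The cause of the other changes was not tested, and the share of all genes gained was not counted with these lists.

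Omission of each replicate in turn gave a WT minus KO difference of -1 to 2 regions. It reversed without WT_IFNγ replicate 2 (-1), KO_untreated replicate 1 (-0.5) and KO_untreated replicate 2 (-0.25), so its direction rests on single libraries. Gained promoters ranged from 2 to 3 in KO and from 0 to 4 in WT, where WT_IFNγ replicate 1 decides the count. On omission of a replicate the IFNγ minus untreated difference ranged from 1.83 to 4.17 regions and from 1.42 to 3.08 promoters. It was lowest without WT_IFNγ replicate 2. Omission of clone WT_4, chosen after seeing the data, gave 4 gained promoters in WT and a genotype difference of 2.25 regions.

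Permutation of genotype within replicate numbers (replicate block) changes only which assignments are compared, so it could not move the difference of 0.5. The thresholds on −log10 q and fold enrichment, the overlap rule, a distance of 5 kb and promoter windows of 150 and 1000 bp kept the direction of the IFNγ difference in every count. With pileup, pileup over library background or percentile, 7 of the 8 regions were highest in an IFNγ library. The presence of peaks fixes this on any scale for all but the APOL2 promoter, the only region with peaks in both treatments. At the median local background of APOL peaks, a pileup under 6 to 12 fragments, depending on the library, would not have been listed.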
